A study of Mus musculus with 3 samples.

Results

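The genes described here are 7 serine proteases of the trypsin, chymotrypsin and elastase family, which are known as secreted digestive enzymes of the exocrine pancreas, as they were measured in a mouse liver RNA. They are Try4, Try5 and 1810009J06Rik (trypsins), Ctrb1 and Ctrl (chymotrypsins), and Cela1 and Cela3b (elastases). Every probe whose only gene symbol in the platform annotation was one of these names was taken, which gave 21 of the 12336 probes with 1 symbol and 16273 probes in all. The genes were chosen because earlier results of the same data had shown high ratios for them, so their ratios are given as a description, without a test. In the study, total RNA of mouse liver was hybridised against Universal Mouse Reference RNA (UMRR), a purchased mixture that is used as a common reference on arrays, on 3 arrays of 2 colours. Liver carried Cyanine-5 and UMRR carried Cyanine-3 on each array. Both were bought as finished RNA and amplified in 1 round, and the labels give neither a strain, age or sex nor a treatment. Since 1 catalogue product is named for each RNA, the 3 arrays repeat 1 pair of RNAs, and any SD or p-value below covers the variation of these arrays only and may be wholly technical.

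Pancreatic acinar cells make these proteases as inactive zymogens, store them in zymogen granules and release them into the gut. There enteropeptidase turns trypsinogen into trypsin, and trypsin activates the chymotrypsinogens and proelastases. Trypsins cut after lysine or arginine, chymotrypsins after large aromatic residues and elastases after small or hydrophobic ones. The liver is not known as a main site of their synthesis. Acinar genes are held active by PTF1, a complex of PTF1A with an E protein and RBPJL, which binds an E-box beside an RBPJ box.

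Values are log2 ratios of liver over UMRR as deposited, with base 2 assumed, and 1 unit is a 2-fold difference. The hepatocyte genes Apoc3, Ambp, Rbp4 and Vtn had means from 4.01 to 5.17, all on the positive side, so positive values were read as higher in liver. This list set the direction and is no result. An exact 0 was read as no measured ratio and made up 23.5% to 32.2% of the values of an array. On all 3 arrays 9910 probes and 5520 genes had a ratio. The arrays carry no dye swap, and each ratio compares 1 gene between both RNAs, so it gives no level of one gene against another. In RNA of a whole tissue, fewer cells of a type and less RNA per cell cannot be told apart.

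All 7 proteases were measured on all 3 arrays by at least 1 probe. Of the 21 probes, 17 had a ratio on every array, 2 had one on 2 arrays, 1 on 1 array and 1 on 0 arrays. The 17 probes ranged from 2.18 to 5.53 on single arrays. At the level of genes, 7 of 7 were at least 2-fold higher in liver on every array. Among all 5520 genes 9.46% met that criterion, and since the genes were chosen on this contrast nothing is read from the comparison.

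The 250 bases before the start of 5 of the genes are shown because these genes lie on several chromosomes and had high ratios of liver over UMRR together. The sequences are those of RefSeq on GRCm38.p6, written 5′ to 3′ on the strand of the gene. Capitals mark 3 motifs, each searched on both strands. The E-box bound by PTF1A was searched as CACCTG, the RBPJ box as TTCCCA and the promoter element for TBP, the TATA-binding protein, as TATAAA. Entries for Try5 and 1810009J06Rik were not matched.
Try4, chr6:41302022-41302271, plus strand: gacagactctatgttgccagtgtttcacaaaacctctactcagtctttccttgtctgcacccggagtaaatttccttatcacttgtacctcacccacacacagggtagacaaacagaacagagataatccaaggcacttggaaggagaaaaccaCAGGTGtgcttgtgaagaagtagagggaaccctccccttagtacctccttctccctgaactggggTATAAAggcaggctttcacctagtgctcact
Ctrb1, chr8:111691011-111691260, minus strand: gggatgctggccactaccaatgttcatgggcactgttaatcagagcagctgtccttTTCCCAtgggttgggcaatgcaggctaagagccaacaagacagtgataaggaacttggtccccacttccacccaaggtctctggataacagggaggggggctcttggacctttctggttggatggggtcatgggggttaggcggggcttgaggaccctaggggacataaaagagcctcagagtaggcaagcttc
Ctrl, chr8:105933863-105934112, minus strand: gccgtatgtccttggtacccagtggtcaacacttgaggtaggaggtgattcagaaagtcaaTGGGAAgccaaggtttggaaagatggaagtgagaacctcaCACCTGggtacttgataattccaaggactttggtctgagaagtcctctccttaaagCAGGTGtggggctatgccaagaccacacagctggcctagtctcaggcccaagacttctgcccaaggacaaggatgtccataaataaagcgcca
Cela1, chr15:100687921-100688170, minus strand: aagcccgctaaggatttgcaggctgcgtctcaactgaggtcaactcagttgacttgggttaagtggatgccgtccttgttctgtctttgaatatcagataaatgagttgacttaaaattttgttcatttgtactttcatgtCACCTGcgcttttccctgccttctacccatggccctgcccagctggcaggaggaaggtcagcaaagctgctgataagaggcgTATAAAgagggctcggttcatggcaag
Cela3b, chr4:137430521-137430770, minus strand: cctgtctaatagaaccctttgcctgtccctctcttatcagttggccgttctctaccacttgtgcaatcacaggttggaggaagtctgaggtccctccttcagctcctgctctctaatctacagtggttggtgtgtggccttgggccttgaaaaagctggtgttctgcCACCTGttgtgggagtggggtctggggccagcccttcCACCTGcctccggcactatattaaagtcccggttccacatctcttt

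The PTF1A type of E-box, CACCTG, was found in 4 of the 5 sequences, and in 17.2% of the 32851 start sites of the RefSeq table over the same length. In Try4 it lay on the opposite strand, 96 to 91 bases before the start. Ctrl held a pair of matches, at 149 to 144 and, on the opposite strand, 93 to 88 bases before the start. Cela3b held a pair at 83 to 78 and 46 to 41, and Cela1 had 1 match at 109 to 104. Ctrb1 had none of these letters in this window. CACCTG is 1 form of the general E-box CANNTG, which was present in all 5 sequences and in 66.2% of all start sites. The RBPJ box TTCCCA was found in Ctrb1 and Ctrl (2 of 5, against 21.6%), at 194 to 189 and 189 to 184 bases before the start. The CANNTG match of Ctrb1 lay at 205 to 200, close to its RBPJ box. In Ctrl the CANNTG matches nearest to the RBPJ box lay farther off, at 221 to 216 and 149 to 144. The spacing of E-box and RBPJ box was not tested. Within the 150 bases before the start TTCCCA was found in 0 of 5, against 13.1% of all start sites. TATAAA was present in Try4 and Cela1 (2 of 5, against 12.4%). AAGGTCA, the core site of NR5A2, was present in Cela1 (1 of 5, against 4.08%) and is not in capitals. These matches are letters in a window, and no binding was measured.

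**Figure D1:**
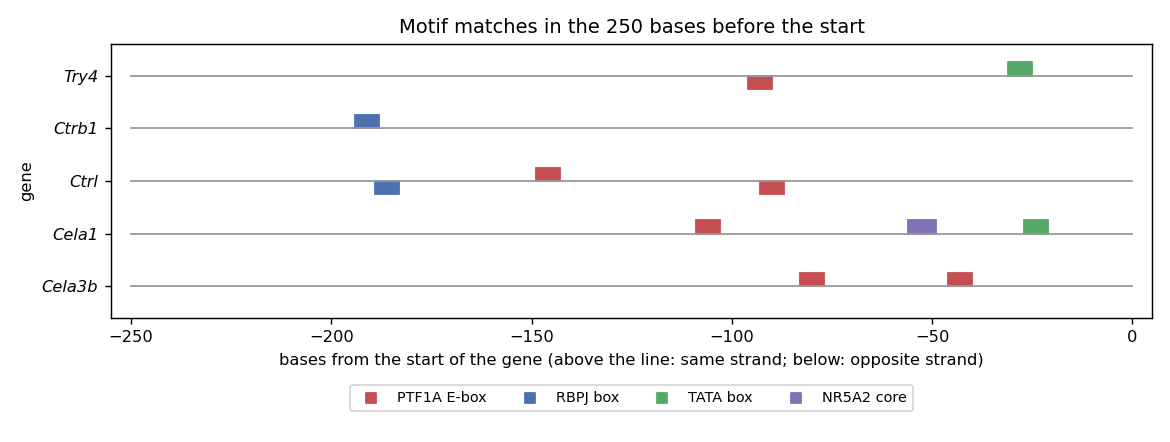
Matches of 4 motifs in the 250 bases before the start of 5 protease genes, by distance in bases, with boxes above the line on the strand of the gene and below it on the opposite strand. The E-box CACCTG appears in Try4, Ctrl, Cela1 and Cela3b, between 149 and 41 bases before the start.

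Try4 is a trypsin gene of the trypsinogen cluster on chromosome 6. Its probe 13309 stood at 5.08, 5.53 and 5.53 on arrays 1, 2 and 3, a mean of 5.38 ± 0.26 (SD, n = 3 arrays) or 41.7-fold. Array 1 was the lowest and the other arrays were alike. A second probe of the gene, 7160, stood at 4.87 on array 1 and 5.59 on array 2 and was listed at exact 0 on array 3, so it did not enter the mean. Where both were measured, these probes differed by less than the arrays did. Try4 ranked sixth from the top of all 5520 genes.

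1810009J06Rik, a trypsin-like gene of the same chromosome, was measured by probe 3771 at 5.02, 5.43 and 5.31 on arrays 1, 2 and 3. The mean was 5.25 ± 0.21 (SD, n = 3), or 38.1-fold. Array 1 was again the lowest. Its range over arrays overlapped that of Try4, and Try4 was higher on 3 of 3 arrays by 0.06, 0.10 and 0.22.

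Try5, the protein-coding gene next to Try4, was measured by probe 18066 at 3.26, 3.45 and 3.04 on arrays 1, 2 and 3. Its mean of 3.25 ± 0.20 (SD, n = 3), or 9.51-fold, was the lowest of the 7 genes. Here array 3 and not array 1 was the lowest. The ranges of Try5 and Try4 did not overlap, although both are trypsins and neighbours. Genes of this cluster are close in sequence, and a probe of 1 trypsin can take up RNA of another, so single trypsin values are uncertain. The probe sequences were not used here.

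The gene just before Try4 among the protein-coding genes, 2210010C04Rik, is a trypsin that is no member of the group, and it was named after its values were seen. Its 3 probes disagreed. Probe 3935 stood at 5.73 on array 1 and 6.20 on array 2, the highest value of any probe on array 2, and was listed at exact 0 on array 3. Probe 16492 stood at 3.67, 3.95 and 3.68 on the 3 arrays, while probe 7148 stood at -0.24, -0.26 and -0.54. The mean of the 2 probes measured on all arrays, 1.71 ± 0.14 (SD, n = 3), thus averages a probe far above 0 with one below it.

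Ctrb1, chymotrypsinogen B, was the member with the most probes. Of its 9 probes, 6 had a ratio on all arrays, and their means lay between 4.52 for probe 5458 and 5.09 for probe 11724. Averaged over these 6 probes, Ctrb1 stood at 4.52, 5.04 and 5.02 on arrays 1, 2 and 3. The mean was 4.86 ± 0.29 (SD, n = 3), or 29.1-fold. The gap between the highest and the lowest of the 6 probes was 0.75, 0.45 and 0.72 on the 3 arrays, so 6 probes of this gene gave like ratios. Of the 3 probes with zeros, probe 8725 stood at 5.09 and 5.29 on arrays 1 and 2 with exact 0 on array 3. Probe 603 stood at 4.62 on array 2 with exact 0 on the other arrays, and probe 13328 was at exact 0 on all 3. The measured values of probes 8725 and 603 were thus close to those of the 6, and their zeros did not go with low ratios on the other arrays.

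Ctrl, a chymotrypsin-like protease, had 2 probes that gave nearly the same ratio. Probe 2297 stood at 4.01, 4.65 and 4.62 on arrays 1, 2 and 3, and probe 10950 at 4.15, 4.42 and 4.60. The gene mean was 4.41 ± 0.29 (SD, n = 3), or 21.2-fold. The probes differed by 0.15, 0.23 and 0.02 on the 3 arrays, less than array 1 differed from the others.

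Cela3b, an elastase, was measured by 4 probes on all arrays. Of these, 3 are paired by the annotation with cDNA clones and had means from 4.39 to 4.98. Probe 3989 stood at 4.50, 5.29 and 5.13 on arrays 1, 2 and 3, probe 16466 at 4.53, 5.04 and 5.26, and probe 5721 at 3.85, 4.58 and 4.73. Probe 16111, the only one of the 21 that the annotation pairs with a RefSeq transcript, stood at 2.60, 3.22 and 2.86. It was below each of the other probes of Cela3b on every array, and the highest probe exceeded it by 1.93, 2.07 and 2.40. The mean over the 4 probes was 3.87, 4.53 and 4.50 on the 3 arrays, or 4.30 ± 0.37 (SD, n = 3) and 19.7-fold.

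Cela1, elastase 1, was measured by 2 probes that stood apart on every array. Probe 3772 was at 3.98, 4.46 and 4.45 on arrays 1, 2 and 3, and probe 7086 at 2.18, 2.48 and 2.40. The difference of 1.80, 1.98 and 2.05, on average 3.85-fold, was far larger than the SD of either probe between arrays (0.27 and 0.16). The gene mean of 3.33 ± 0.21 (SD, n = 3), or 10.04-fold, therefore lies between 2 values that each repeated well. Both probes were above 0 on all arrays, so the direction did not depend on the probe, while the size did.

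**Figure D2:**
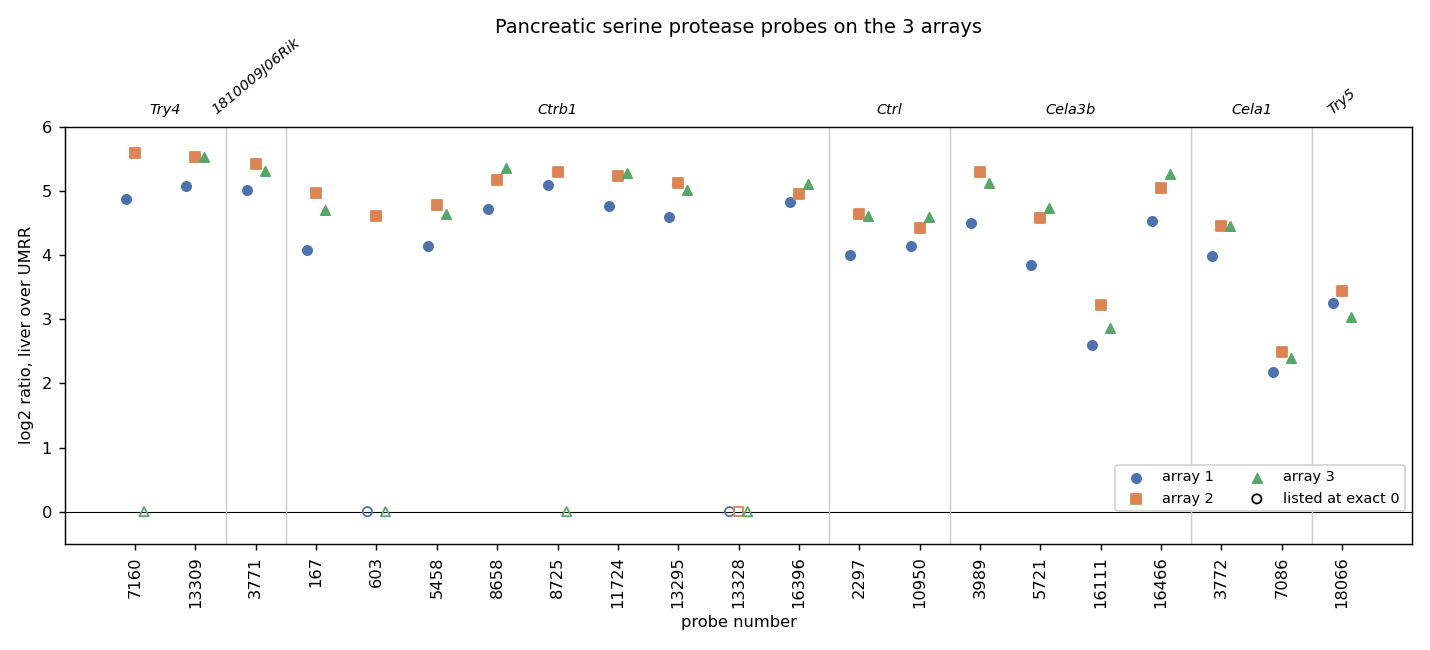
Log2 ratio of liver over UMRR for each of the 21 probes of the 7 genes on arrays 1, 2 and 3, grouped by gene, with open symbols for values listed at exact 0. The 6 full probes of Ctrb1 lie close together, while probe 7086 of Cela1 and probe 16111 of Cela3b lie about 2 units below the highest probe of their gene.

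By gene mean the order from the top was Try4, 1810009J06Rik, Ctrb1, Ctrl, Cela3b, Cela1 and Try5. Only Cela3b and Cela1 were neighbours in this order whose ranges over arrays did not overlap, with 3.87 as the lowest value of Cela3b and 3.47 as the highest of Cela1. Single probes crossed this gap, so it depends on averaging probes that disagree. Probe 3772 of Cela1 stood between 3.98 and 4.46, and probe 16111 of Cela3b between 2.60 and 3.22. For the 5 other pairs of neighbours the ranges overlapped. Within arrays, 1810009J06Rik was above Ctrb1 on 3 of 3 arrays, by 0.49, 0.39 and 0.29. Ctrb1 was likewise above Ctrl on 3 of 3, by 0.45, 0.50 and 0.41. Ctrl and Cela3b differed by 0.21, 0.0011 and 0.11, a mean of 0.11 ± 0.10 (SD, n = 3). Their order turned when the median of the probes was taken in place of the mean, which gave 4.64 for Cela3b and 4.41 for Ctrl. Cela1 was above Try5 on 2 of 3 arrays and below it on array 1, so these genes did not differ beyond their spread. The families did not separate, since trypsins held both the top and the bottom of the order.

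Array 1 gave the lowest ratio for 16 of the 17 probes and for 6 of the 7 genes. The median over the 7 genes was 4.08 on array 1, 4.54 on array 2 and 4.61 on array 3. Array 1 minus the mean of arrays 2 and 3 was -0.65 for Cela3b, -0.51 for Ctrb1, -0.49 for Ctrl, -0.45 for Try4, -0.37 for Cela1 and -0.35 for 1810009J06Rik, but 0.015 for Try5. Genes outside the group moved too. Among the 81 other genes with a mean at or above that of Try5, 65 were lower on array 1 by this difference, with a median of -0.32. Over all 5513 other genes 2680 were lower on array 1 by this difference, and the median was 0.012. These counts set array 1 against the mean of arrays 2 and 3. How many other genes had array 1 as the lowest of the 3 arrays was not counted. Whether the gap differs between the proteases and these genes was not tested.

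**Figure D3:**
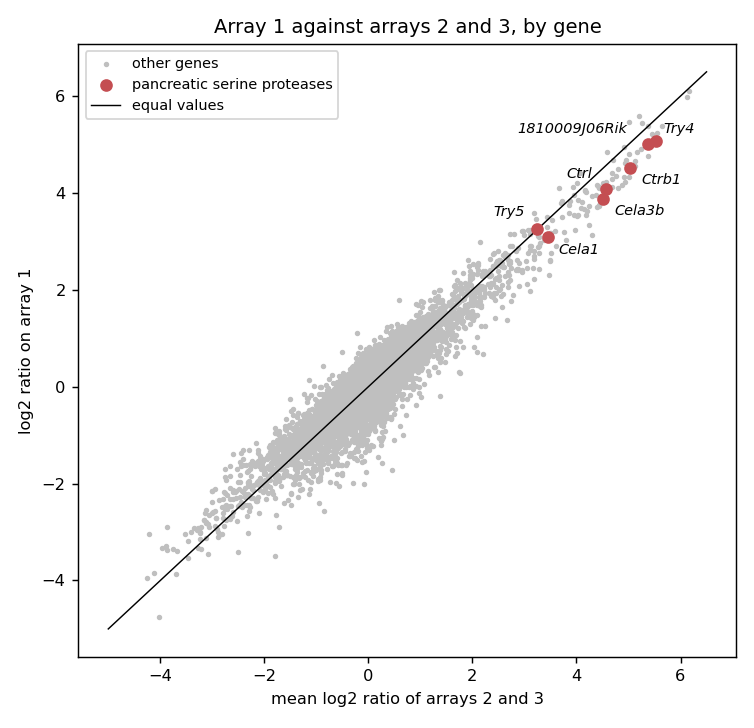
Log2 ratio on array 1 against the mean of arrays 2 and 3 for 5520 genes, with the 7 proteases in red and a line of equal values. Try5 lies on the line and the other 6 proteases lie below it, as do most genes with high ratios.

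Likeness was measured as the root mean square difference, over the 3 arrays, between a gene and the median of the 7 proteases. The nearest gene was the beta globin gene Hbb-bt, at 0.055, with ratios of 4.02, 4.59 and 4.56 on arrays 1, 2 and 3. Hamp2, a hepcidin gene (0.088), and Gp2, the major membrane glycoprotein of zymogen granules (0.099), followed. Nat8f5, an N-acetyltransferase-like gene (0.14), and Bdh1, an enzyme of ketone body metabolism (0.16), came next. With 3 arrays of 1 RNA pair, this measure compares the size of ratios and says nothing of a pattern across tissues.

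Other genes around these proteases were read from lists, in the limma fit over all 5520 genes with Benjamini-Hochberg adjustment. The lists were written with earlier results of these data known, so their counts are a description and no independent support. In that fit 64.0% of all genes passed at an adjusted p of 0.05, 30.1% higher in liver and 33.9% lower, with a median of -0.028. Of the secreted and granule proteins of acinar cells, 15 of 32 listed genes were on the array, 14 were measured on all arrays, and 13 were higher in liver and 0 lower, and 1 missed the threshold. Their median was 3.00, and it was 2.86, 3.19 and 2.96 on arrays 1, 2 and 3. Reg2, a secreted protein of the regenerating family, stood at 5.39, 5.65 and 5.61, a mean of 5.55 ± 0.14 (SD, n = 3). Rnase1, the pancreatic ribonuclease, had a mean of 4.67 ± 0.18, and Clps, colipase, one of 4.55 ± 0.24 over 8 probes. Gp2 stood at 4.50 ± 0.32, Pnliprp2, a lipase-related protein, at 4.45 ± 0.30, Cpb1, carboxypeptidase B, at 3.87 ± 0.30 and Cpa1, carboxypeptidase A, at 3.47 ± 0.23. Of the 14 genes, 6 fell within the span of the 7 proteases, Reg2 above it and 7 below it. Those below were Reg3a (2.54 ± 0.17), Pla2g1b (2.38 ± 0.13), Reg3d (2.09 ± 0.11), Reg3g (2.02 ± 0.046), Erp27 (1.09 ± 0.12), Amy2a5 and Cel.

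Not every acinar gene had a high ratio. Amy2a5, pancreatic amylase, stood at 0.72, 0.31 and 0.55 on arrays 1, 2 and 3 on its 1 probe, a mean of 0.53 ± 0.20 (SD, n = 3) with an adjusted p of 0.00679 in the limma fit. Without moderation of the variance its adjusted p was 0.0872. Cel, the bile salt-activated lipase, stood at 0.29, 0.24 and 0.13 on 1 probe and did not pass (adjusted p = 0.0821). Cuzd1, a zymogen granule protein, was listed at exact 0 on all arrays. The lowest protease mean, that of Try5, was above the means of Amy2a5 and Cel. Since the proteases were chosen for high ratios, nothing is read from this order. The part that acinar RNA has in the protease ratios was not tested.

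Of 12 listed transcription factors and receptors of acinar cells, 3 were measured on all arrays, and 2 were higher and 1 lower. Ptf1a, the factor that defines acinar cells, stood at 0.35, 0.55 and 0.35, a mean of 0.42 ± 0.12 (SD, n = 3). Xbp1, a factor of secretory cells that hepatocytes also express, stood at 0.43 ± 0.13. Both calls were lost without array 3 (adjusted p = 0.0633 for Ptf1a and 0.119 for Xbp1), and that of Ptf1a without array 2 (adjusted p = 0.0889). Without moderation of the variance neither passed (adjusted p = 0.0603 and 0.0638). Gata6 was lower, at -3.20 ± 0.25. Both probes of Bhlha15, which encodes MIST1, were at exact 0 on all arrays.

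Genes that activate or restrain trypsin came next. Of 25 listed genes 10 were on the array, and 6 were measured on all arrays. Of these 4 were higher in liver, 0 were lower and 2 missed the threshold; the median was 1.72. Ambp is among the 4 and also among the genes that set the direction; without it 3 of 5 were higher, with a median of 1.45. Serpini2, a serpin of the pancreas, stood at 2.56, 2.56 and 2.34 on arrays 1, 2 and 3, a mean of 2.48 ± 0.12 (SD, n = 3) over 3 probes. Spink1, the trypsin inhibitor that acinar cells secrete with the zymogens, stood at 1.08, 1.56 and 1.71, a mean of 1.45 ± 0.33 over 2 probes. Spint2, a membrane inhibitor of serine proteases, stood at 1.99 ± 0.28 and Ambp, whose product yields the inhibitor bikunin and which is a hepatocyte gene, at 4.01 ± 0.22. The mean of Spink1 was below that of every one of the 7 proteases, which were chosen for high ratios, so nothing is read from this. Spink5 (0.25 ± 0.31) and Spint1 (0.039 ± 0.096) did not pass, though Spink5 passed without array 1 (adjusted p = 0.0321). Ctsb, a lysosomal protease that can activate trypsinogen, had a ratio on array 2 only, at 0.34. Itih4 of the same list also had a ratio on array 2 only, at 2.14. Serpina1d stood at 0.84 and 1.12 on arrays 1 and 2 with exact 0 on array 3. Both probes of Ctsl were at exact 0 on all arrays.

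Other proteases of the same fold were read from 4 lists. The 3 measured serine proteases of plasma and hepatocytes were all higher, with F11, coagulation factor XI, at 5.33 ± 0.17 (SD, n = 3), C1ra, a complement protease, at 2.11 ± 0.18 and Hgfac, the activator of hepatocyte growth factor, at 1.70 ± 0.14. F11 thus stood with the highest of the 7. Of 5 further serine proteases of this fold, 1 was higher, 1 lower and 3 missed the threshold; the median was 0.28. Prss23 was lower, at -2.64 ± 0.30. Corin, which processes natriuretic peptide precursors, was higher at 0.42 ± 0.057, but missed the threshold when array 2 (adjusted p = 0.0515) or array 3 (adjusted p = 0.0568) was left out. Acr, the sperm protease acrosin, did not pass at 0.31 ± 0.34 and passed without array 1 (adjusted p = 0.000677). Of the list of other trypsins, chymotrypsins and elastases, 2210010C04Rik passed and Prss56 did not (-0.086 ± 0.35). The mean of Prss56 was 0.078 without array 3, and without array 1 it passed as lower (-0.27, adjusted p = 0.0356). Klk7, the 1 measured kallikrein of its list, was higher at 1.66 ± 0.26.

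Markers of other cells of the pancreas and of nearby organs were read in the same way. Of 19 listed islet genes 7 were on the array. The 4 measured on all arrays were higher, with a median of 0.76 and a span from 0.65 to 0.87. They were Chgb (0.87 ± 0.22, SD, n = 3), Gcg, which encodes glucagon (0.79 ± 0.39), Ins2, insulin (0.74 ± 0.60), and Neurod1 (0.65 ± 0.36). Ins2 stood at 0.055 on array 1 against 1.19 and 0.96, and it missed the threshold when array 2 (adjusted p = 0.0882) or array 3 (adjusted p = 0.0702) was left out. Without moderation of the variance none of the 4 passed, with adjusted p from 0.0517 for Chgb to 0.230 for Ins2. The other islet genes had exact zeros and lay outside this span. Pdx1 stood at 0.30 on array 1 and -0.16 on array 3, Slc2a2 at 2.70 on array 1 and Scg2 at 0.17 on array 3. Sox9, the 1 duct gene measured on all arrays, was lower at -1.28 ± 0.39, though not without moderation (adjusted p = 0.0654). Car2, also of the duct list, stood at 1.84 on array 2 on probe 17565. Its other values were exact 0.

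All 6 measured stomach genes were higher, with a median of 1.37. Gkn2, a gastrokine, stood at 2.01 ± 0.35 (SD, n = 3), Tff2, a trefoil peptide, at 1.64 ± 0.34 and Tff1 at 1.51 ± 0.061, while Atp4a and Atp4b of the acid pump were at 0.33 ± 0.082 and 0.27 ± 0.042. The calls of Atp4a and Atp4b were lost without array 2 (adjusted p = 0.156 and 0.183) and without array 3 (adjusted p = 0.121 and 0.261). Both intestinal genes measured on all arrays, Tff3 (1.01 ± 0.19) and Sis (0.50 ± 0.13), were higher. Cdx2 of the same list stood at -0.26 and -0.15 on arrays 2 and 3 with exact 0 on array 1. Fabp2, also of that list, was at exact 0 on all arrays. Of the salivary genes Bpifa2 was higher (0.57 ± 0.15) and Aqp5 lower (-0.66 ± 0.34). Smgc, also salivary, stood at -0.13 on array 1 and 0.0037 on array 3. Without moderation Atp4a, Sis, Bpifa2 and Aqp5 did not pass (adjusted p = 0.0521, 0.0530, 0.0530 and 0.130). Every mean of these islet, stomach, intestinal and salivary genes lay below that of Try5. As the proteases were chosen for high ratios, this was largely given in advance. The part of RNA from these organs in the protease ratios was not tested.

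**Figure D4:**
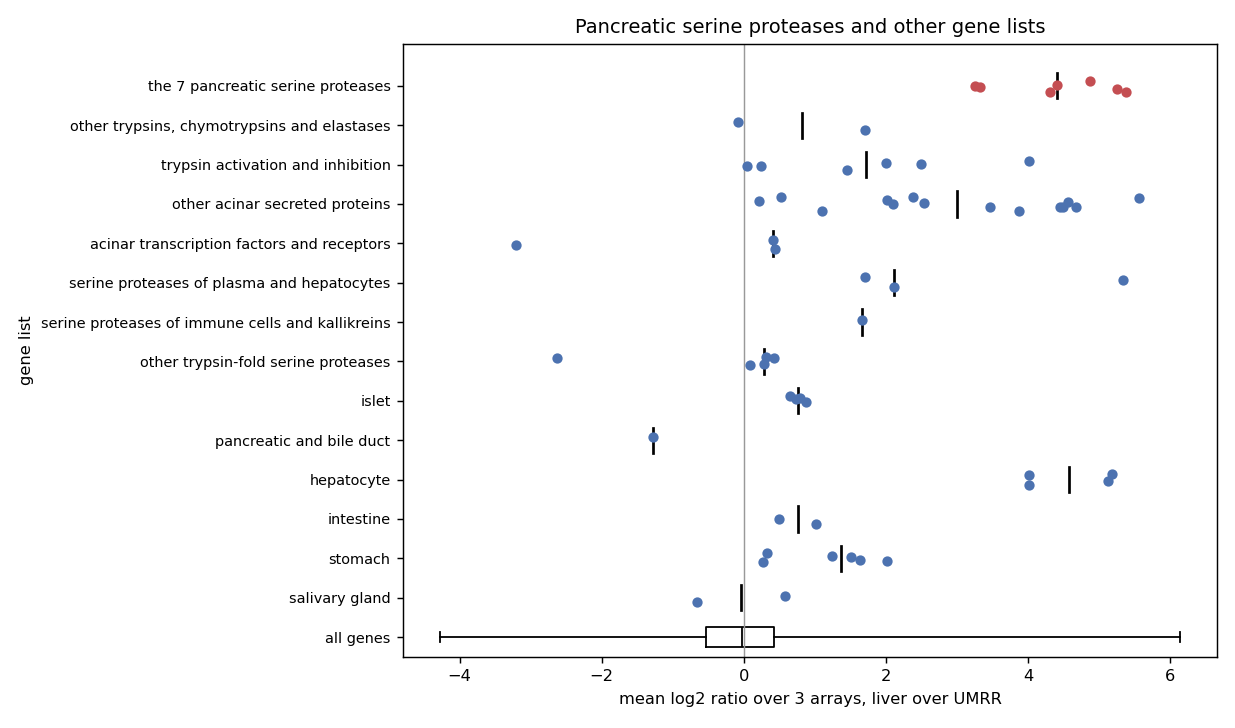
Mean log2 ratio of liver over UMRR over 3 arrays for the 7 proteases (red), for the genes of 13 lists (blue, 1 point a gene) and for all 5520 genes (box from the first to the third quartile, whiskers to the extremes), with black bars at medians. The proteases lie between 3.25 and 5.38, and the islet genes measured on all arrays between 0.65 and 0.87.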

How the data were processed

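Liver and UMRR were co-hybridised on 3 two-colour arrays, which form 1 group. The authors deposited 1 log2 ratio per probe and array. Base 2 is assumed. No scanner, background correction, dye normalization or filter is named in the sources used here. Exact zeros were read as no measured ratio. Dim probes could not be filtered, because intensities were not analysed here, and the number of arrays limits the precision. Probes were named from the platform annotation (12336 with 1 symbol, 61 with several, 3876 with none), and all 7 genes matched the RefSeq table of GRCm38.p6 by identifier. Probes with a ratio on all 3 arrays were averaged per gene and array. For 5520 genes the mean was tested two-sided against 0 with limma 3.58.1 (an intercept, lmFit, then eBayes) in R 4.3.3, with Benjamini-Hochberg adjustment. The fit was tested on simulated data with few changed genes, whereas 64.0% of genes passed here, so nothing is read from that test. The 7 genes got no test. Members and lists were chosen with earlier results of these data known. From each list the text names at least the 3 genes with the largest absolute means, and it names the 5 genes most like the median of the 7. Motifs were searched in the 250 bases before each start in Python 3.11.15. Alternatives were the treatment of zeros, centring, scaling, the log base, the probe summary, the variance model, the promoter length and leaving out each array.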

Additional observations from a re-analysis of the deposited data

How the results depend on the processing

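All 7 protease means stayed above 0 under each alternative run. The genes were chosen for high ratios, so this was largely given in advance and nothing is read from it. With exact zeros kept as ratios of 1, Try4 fell to 4.43 and Ctrb1 to 3.80, since probes with zeros enter, and the other 5 did not change. Read as natural logs, the means became 7.76 for Try4, 7.58 for 1810009J06Rik, 7.01 for Ctrb1, 6.36 for Ctrl, 6.20 for Cela3b, 4.80 for Cela1 and 4.69 for Try5 on the log2 scale. Leaving out 1 array gave 5.31 to 5.53 for Try4, 5.17 to 5.37 for 1810009J06Rik, 4.77 to 5.03 for Ctrb1, 4.31 to 4.57 for Ctrl, 4.18 to 4.52 for Cela3b, 3.25 to 3.45 for Cela1 and 3.15 to 3.35 for Try5. Centring, scaling, the median probe and probes on at least 2 arrays moved no protease by more than its SD.

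Of 5520 genes 3535 passed, 1663 higher and 1872 lower. Without moderation of the variance 2087 passed, 1033 higher and 1054 lower. With zeros kept, 2391 of 7984 genes passed (29.9%), 1162 higher (14.6%) and 1229 lower (15.4%). Leaving out 1 array gave 2755 to 4004 genes. With zeros kept, the list of other trypsins had 0 higher genes (2210010C04Rik, 2.46, adjusted p = 0.103), the islet list 1 higher and the salivary list 0 lower, and Cpb1 (adjusted p = 0.0793), Hgfac (0.0804), Gkn2 (0.149) and Amy2a5 (0.0674) lost their calls. Leaving out 1 array gave 0 to 1 lower genes among other trypsins, 0 to 2 higher among acinar transcription factors and 0 to 2 higher among further serine proteases. TTCCCA was in 0 of 5 protease promoters over 150 bases, against 13.1% of all start sites. The planned comparison of protein sequences was not run.

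No paired analysis was possible because all 3 arrays belong to 1 group. Signal over background was not analysed here, so ratios of dim probes could not be told from others, and dye bias is part of each ratio.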

Other observations

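A wider set of serine protease genes was read after the values were seen, taken as every gene whose symbol starts with Prss, Klk, Tmprss, Mcpt or Gzm and a digit. Of 15 such genes on the array, 12 were measured on all arrays, and 4 were higher in liver, 1 was lower and 7 did not pass the limma fit, with a median log2 ratio of 0.24. Over all 5520 genes 30.1% were higher and 33.9% lower, so the share that was higher is near that of all genes. The share that was lower, 1 of 12, was smaller than that of all genes, and this difference was not tested. Klk11, a kallikrein, stood at 1.57, 1.76 and 1.90 on arrays 1, 2 and 3, a mean of 1.75 ± 0.16 (SD, n = 3) over 4 probes. Prss41 had the highest mean of the set, at 2.03 ± 0.17. All 12 means lay below that of Try5, but the 7 proteases were chosen for high ratios, so nothing is read from this.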
